A study of Mus musculus with 4 samples.

Results

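The *Ccl8* *Clec10a* *C4b* macrophages described here are 251 cells of injured mouse muscle, 177 from a control library and 74 from a library labelled KO. They were taken from the 9721 cell barcodes of the pair of libraries made at 4 days post-injury (dpi4), out of 20500 barcodes in the whole series. A cell was a member if it had at least 500 detected genes, under 10% mitochondrial UMIs (distinct RNA molecules), and at least 5 UMIs of *C1qa*, *C1qb* and *C1qc* together per 10000, which marked it as a C1q macrophage. It also had at least 1 UMI in 2 or more of *Ccl8*, *Clec10a* and *C4b*. Cells over 4 limits were kept out: 100 UMIs per 10000 for the MHC class II genes *Cd74*, *H2-Aa*, *H2-Ab1* and *H2-Eb1* together, 5 for *Gpnmb*, 5 for *Slc40a1*, and 3 for the interferon-induced genes *Iigp1*, *Ifit2* and *Ifit3* together. In this way 251 of 6504 C1q macrophages at dpi4 were chosen, 177 of 3658 in the control and 74 of 2846 in KO. Levels of these genes chose the cells, so their values in the members are a description.

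The tibialis anterior muscle of male C57BL/6 mice aged 8 to 12 weeks had been injected with cardiotoxin, a venom toxin that kills muscle fibres. CD45+ immune cells were pulled out of it with magnetic beads, and their RNA was counted cell by cell in droplets (10x, 3′ end). Control mice were Bach1 fl/fl, with loxP sites around exon 4 of *Bach1*. KO mice were Bach1 fl/fl Lyz2-Cre, in which the *Lyz2* promoter drives the recombinase in monocytes, macrophages and neutrophils. Each genotype had 1 library at dpi2 and 1 at dpi4, an n of 1 per group. The paper describes its non-chimeric experiment as one with individual mice, but does not state how many animals went into a library. With 1 library per group there was no spread between animals, no test was run, and every interval below is a 95% interval that covers counting error only.

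C1q is the recognition part of the classical complement pathway, and mature tissue macrophages make much of it. CCL8 is a chemokine that attracts monocytes and other leukocytes, CLEC10A is a C-type lectin that binds galactose-type sugars, and C4b is a later component of the classical complement pathway. BACH1 is a repressor that binds Maf recognition elements next to genes of heme degradation, iron storage and glutathione synthesis, and leaves DNA when heme binds it.

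The dpi4 libraries held 80228489 UMIs in 5207 barcodes (control) and 62566722 UMIs in 4514 barcodes (KO). Members had a median depth of 14238 UMIs in the control and 11751 in KO, against 16253 and 15304 in the other C1q macrophages of the same libraries. Their median mitochondrial share was 5.86% and 5.36%, against 4.60% and 4.78%. The libraries of the dpi4 pair shared 2 barcodes, and no member was among them. The 8 macrophage markers summed to 38722 CPM (UMIs per 1000000 UMIs of the cells summed) in the control members and 31066 CPM in the KO members, and none was at 0. The 7 T or NK cell markers summed to 1.43 and 40.2 CPM (4 and 38 UMIs), with 5 of the 7 at 0 in the control. In KO, 24 of these UMIs were of *Nkg7*, of which 18 were in 1 cell. The 6 monocyte markers summed to 696 and 989 CPM, against 442 and 383 CPM in the other C1q macrophages. Fibroblast markers summed to 1001 CPM in the control members and 56.0 CPM in the KO members. Of the 2805 fibroblast UMIs of the control members, 2664 (94.97%) lay in 3 cells, with 1610, 822 and 232 UMIs, and without these cells the control level was 53.6 CPM. These 3 cells stood apart from the rest, of which the highest had 12 fibroblast UMIs, and results that rest on them are given with and without them below.

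More of the members had a UMI of *Ccl8* or of *Clec10a* than of *C4b*. Since the rule asked for 2 of these 3 genes, their shares describe the choice and do not check the name. In the control, 92.7% of members had a UMI of *Ccl8* and 94.4% one of *Clec10a*, while 71 of 177 (40.1%) had one of *C4b*. In KO, the shares were 91.9% and 90.5%, and 24 of 74 (32.4%) for *C4b*. In T or NK cells, which should lack these genes, the shares were 13.3% and 5.10% for *Ccl8* and 3.33% and 4.08% for *Clec10a*. For *C4b* they were 0 of 60 and 0 of 98, which allows shares of up to 5.96% and 3.69%. T or NK cells were shallower, with medians of 6435 UMIs in the control and 5640.5 in KO. The commonest combination was *Ccl8* with *Clec10a* and without *C4b*, in 106 control cells (59.9%) and 50 KO cells (67.6%). All 3 genes were found in 48 control cells (27.1%, interval 20.7 to 34.3) and 11 KO cells (14.9%, interval 7.66 to 25.04).

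Of the 5 marker genes shown per cell, *Ccl8* had the widest range over single members in the control and *Egr1* in KO, with values from 0 to 78.3 UMIs per 10000. The level of *Ccl8* per cell ran from 0 to 281 UMIs per 10000 in the control, with a median of 2.30, and from 0 to 64.9 in KO, with a median of 3.17. The highest values were those of control cells. *Clec10a* had medians of 1.18 and 1.17, with highest values of 19.4 and 8.72. *C4b* had a median of 0 in both libraries and highest values of 17.9 and 6.54. The other marker genes of these cells were not used by the rule. *Igfbp4*, which encodes a binding protein of insulin-like growth factors, had medians of 2.69 and 2.63 UMIs per 10000. It was found in 88.7% and 79.7% of members, 53.1% and 46.2% of the other C1q macrophages and 5% and 2.04% of T or NK cells. *Egr1*, an immediate early transcription factor, had medians of 8.22 and 5.59. It was found in 83.1% and 81.1% of members, 74.8% and 74.7% of the other C1q macrophages and 38.3% and 42.9% of T or NK cells.

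**Figure D1:**
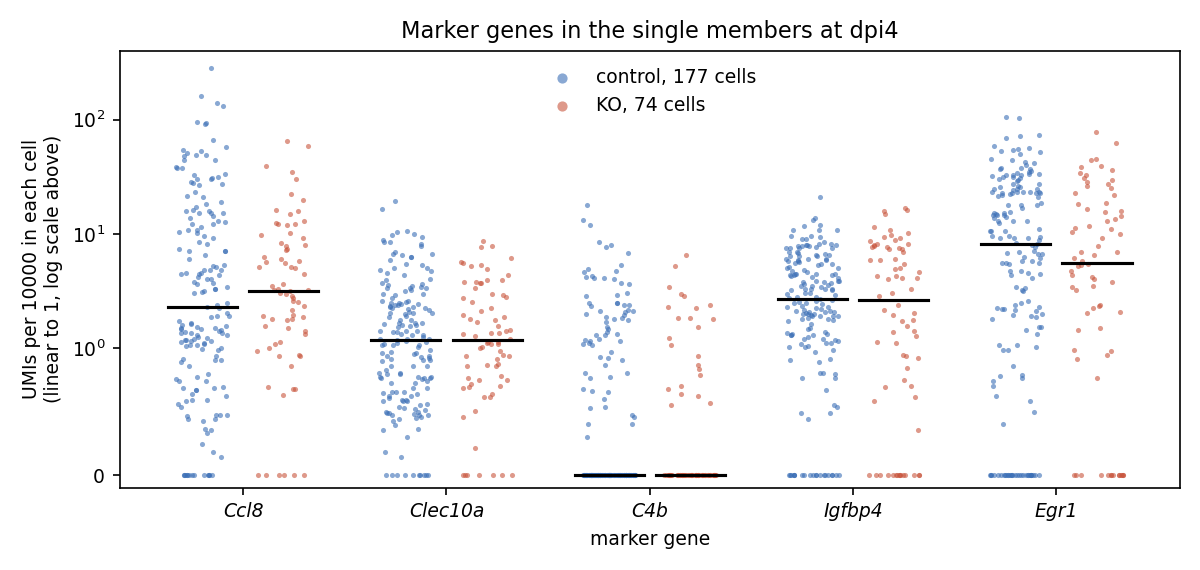
Each point is 1 member at dpi4, for 5 marker genes; the vertical axis gives UMIs per 10000 of the cell's UMIs (linear to 1, log above), and black lines are medians over 177 control and 74 KO cells. The highest *Ccl8* values, up to 281, are control cells, and most cells lie at 0 for *C4b*.

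The cells nearest to each limit were these. The highest member had 99.5 (control) and 88.3 (KO) UMIs of MHC class II genes per 10000, and the lowest cell kept out by that limit alone had 110.7 and 100.02. For *Gpnmb* the values were 4.88 and 4.49 inside and 5.02 and 5.32 outside. For *Slc40a1* they were 4.37 and 4.95 inside and 5.13 and 5.03 outside, and for the interferon-induced genes 2.79 and 2.86 inside and 3.13 and 3.13 outside. For C1q, the lowest member had 7.78 and 5.85 UMIs per 10000 and the highest cell outside had 4.41 and 3.26. Few members lay near that limit, with 3 in each library under 10. More lay near the other limits. Members over 50% of the limit numbered 29 (control) and 6 (KO) for MHC class II and 37 and 11 for *Gpnmb*. For *Slc40a1* they numbered 4 and 16, and for the interferon-induced genes 28 and 15.

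Members were a smaller share of C1q macrophages in the KO library than in the control at dpi4, and the *Slc40a1* limit moved that difference most. The share was 4.84% in the control library (177 of 3658, interval 4.17 to 5.58) and 2.60% in KO (74 of 2846, interval 2.05 to 3.25), a difference of -2.24 percentage points (-3.17 to -1.30). *Slc40a1* encodes ferroportin, the iron exporter, and its level in the other C1q macrophages was 73.9 CPM in the control and 781 CPM in KO. The limit alone kept out 7 control cells and 67 KO cells that passed everything else. Without it the counts were 184 and 141 cells, and the difference was -0.076 points (-1.16 to 1.03). These counts were made by the same rule apart from that limit, which was dropped after its effect was seen. A mitochondrial limit of 5% gave -0.93 points (-2.00 to 0.18), and a gate applied to every cell thinned to 5000 UMIs gave -1.43 points (-2.17 to -0.69). At dpi2 the same rule took 130 of 2252 C1q macrophages in the control (5.77%) and 122 of 1164 in KO (10.5%), a difference of 4.71 points (2.71 to 6.83). The cells at dpi2 were deeper, with medians of 23202.5 and 28381 UMIs, and the rule asks for single UMIs of 2 marker genes, so depth enters it. Gated at 5000 UMIs per cell, the dpi2 shares were 1.79% and 3.44%.

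**Figure D2:**
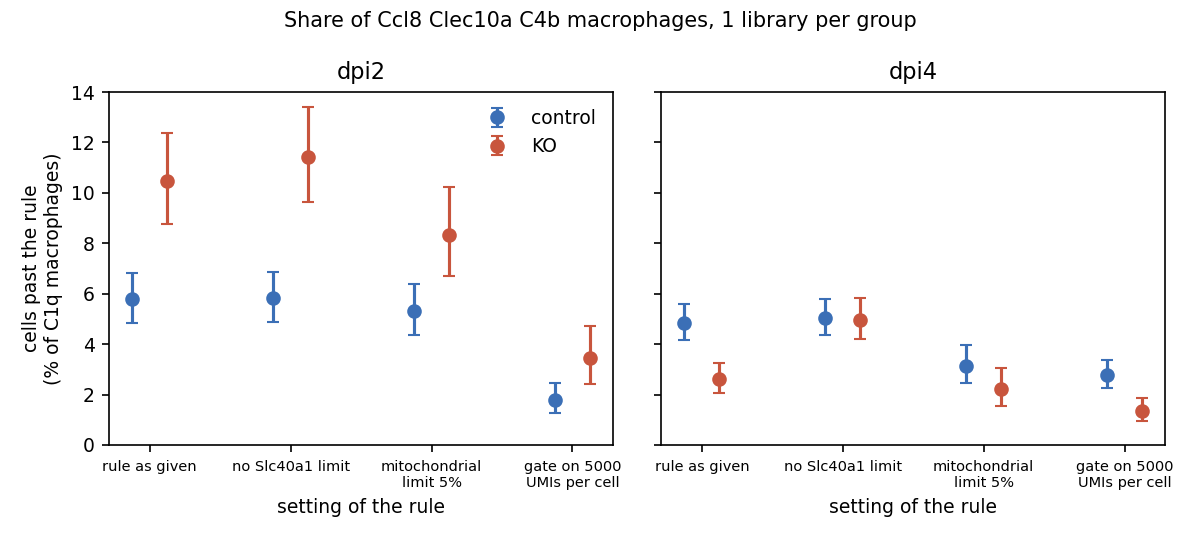
Cells past the rule as a percentage of C1q macrophages (vertical axis) at dpi2 and dpi4 under 4 settings of the rule (horizontal axis), with 95% exact intervals for counting error; blue is the control and red the KO library. At dpi4 the libraries stand at 4.84% and 2.60% under the rule as given and at 5.03% and 4.95% without the *Slc40a1* limit.

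Set against the other C1q macrophages of the same library, members carried more RNA of chemokines that attract monocytes and eosinophils and of genes known from tissue-resident macrophages. A gene passed the size rule if its level differed at least 2-fold, its interval did not hold 1 and both sets together had 50 UMIs or more. Of 11302 genes tested in both libraries, 98 were higher in members in both (0.867%) and 109 were lower in both (0.964%). In single libraries the background was 4.37% higher and 2.54% lower in the control (of 12025 genes, median log2 ratio 0.08) and 3.68% and 2.29% in KO (of 11346 genes, median 0.12). Since the rule had chosen the members on genes of the same cells, these ratios describe the cells that were chosen.

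**Figure D3:**
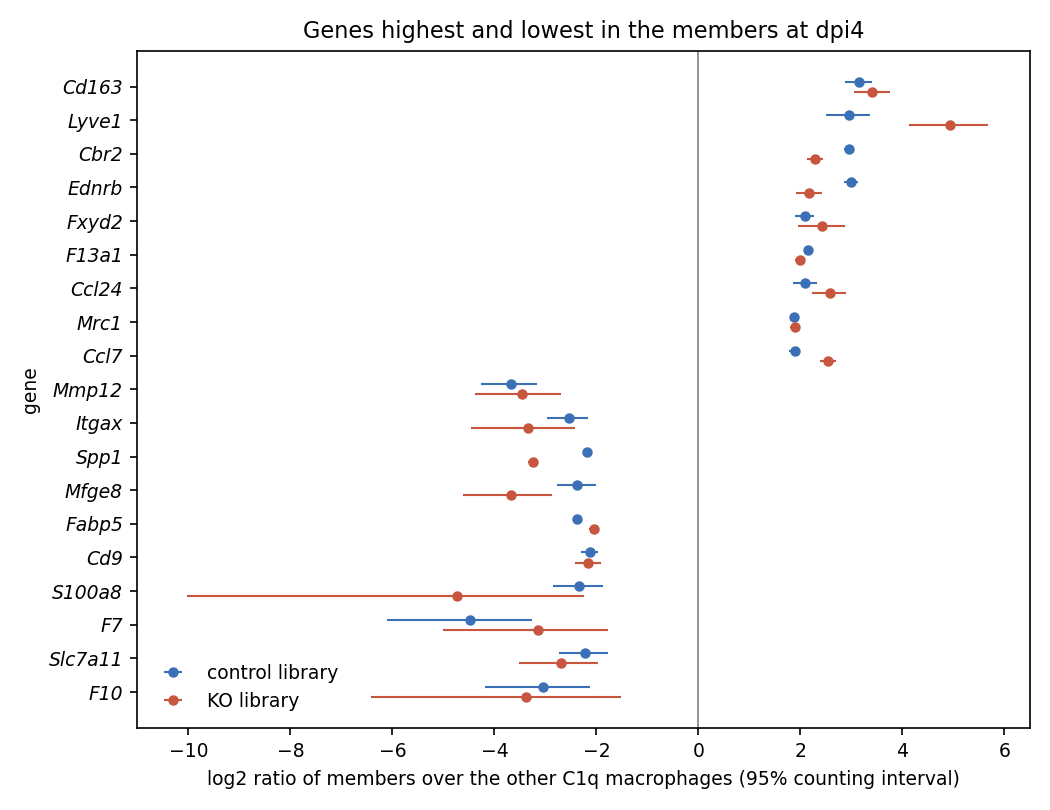
Log2 ratio of the summed level in members over that in the other C1q macrophages (horizontal axis) for the genes reported here among the 10 highest and the 10 lowest in both dpi4 libraries, genes of the rule left out; bars are 95% counting intervals, blue for the control and red for the KO library. *Cd163* stands at 3.14 and 3.41 and *Mmp12* at -3.68 and -3.47.

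Of the 5 chemokines that attract monocytes and eosinophils, 4 were higher in the control members (median log2 ratio 1.89) and 5 in the KO members (median 2.21). *Ccl7* had 325 CPM in members and 87.8 in the others in the control, and 411 and 70.8 CPM in KO. *Ccl2*, the ligand of CCR2, had 547 and 160.6 CPM in the control and 549 and 140.6 CPM in KO. *Ccl24*, an attractant of eosinophils, had 62.8 and 14.7 CPM in the control and 89.9 and 15.04 CPM in KO. The list includes *Ccl8*, which the rule used, with 1235 and 148 CPM in the control and 656 and 142 CPM in KO. Of the other chemokines, *Ccl6* was higher in the control members and *Ccl9* in the KO members. *Ccl5* was lower in the control members and higher in the KO members, where 1 cell carried most of it, as given below, and *Cxcl10*, an interferon-induced chemokine, was lower in both (40.0 against 177 CPM, and 62.4 against 139 CPM).

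Of the tissue-resident macrophage genes, 10 of 13 tested were higher in the control members (median log2 ratio 1.86) and 7 of 13 in the KO members (median 1.34), and none was lower. *Cd163*, the receptor that takes up hemoglobin bound to haptoglobin, had 59.95 CPM in members and 6.78 in the others in the control, and 83.5 and 7.84 CPM in KO. *Mrc1*, the mannose receptor, had 1174 and 321 CPM, and 1418 and 383 CPM. *F13a1*, which encodes the A chain of clotting factor XIII, had 944 and 213 CPM, and 921 and 232 CPM. *Cbr2* (365 and 47.1 CPM, and 355 and 72.6 CPM) and *Folr2*, a folate receptor (406 and 135 CPM, and 309.8 and 109.5 CPM), stood alike. *Lyve1*, a hyaluronan receptor of resident macrophages, was sparse. It had 21.8 and 2.81 CPM in the control and 25.4 and 0.835 CPM in KO, where 70.8% of its UMIs came from 1 cell. Of members, 10.7% and 6.76% had a UMI of *Lyve1*, against 0 of 60 and 0 of 98 T or NK cells. *Timd4*, another gene of resident macrophages, was found in 1 of 177 control members and 0 of 74 KO members, which allows a share of up to 4.86%. *Ccr2*, the receptor of monocytes for CCL2, was found in 63.8% and 62.2% of members. This was near or below its share in T or NK cells (63.3% and 80.6%), which use the gene themselves, and *Ccr2* had 396 CPM in members and 257 in the others in the control, and 509 and 180 CPM in KO.

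Of the C-type lectins and scavenger receptors, 7 of 18 were higher and 2 lower in the control members (median log2 ratio 0.58), and 5 of 17 were higher and 2 lower in the KO members (median 0.47). The list includes *Clec10a*, which the rule used and which was higher in both, and shares *Cd163*, *Mrc1*, *Stab1* and *Fcna* with the tissue-resident genes. *Mgl2*, the close paralog of *Clec10a*, had 28.2 and 10.3 CPM in the control and 20.1 and 8.61 CPM in KO, and reads of so similar a pair may be split uncertainly. *Cd36*, a receptor of oxidized lipids, was lower in both, with 153 and 317 CPM in the control and 218 and 538 CPM in KO. Of 15 complement genes, 5 were higher in the control members (median 0.78) and 3 in the KO members (median 0.39), with 1 lower in each. The list holds *C1qa*, *C1qb*, *C1qc* and *C4b*, which the rule used. *C4b* had 106 and 6.52 CPM, and 51.8 and 8.82 CPM.

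Of 15 growth factors and their binding proteins, 3 were higher and 2 lower in the control members (median log2 ratio 0.33), and 2 were higher and 2 lower in the KO members (median -0.14). *Igfbp4* and *Pdgfc* were higher in both libraries, and *Csf1*, a growth factor of macrophages, was lower in both. *Igfbp4* had 330 and 98.5 CPM in the control (log2 ratio 1.75) and 367 and 84.8 CPM in KO (2.11). *Pdgfc* had 42.5 and 13.7 CPM, and 56.0 and 22.3 CPM. *Igf1*, a growth factor of muscle fibres, did not reach 2-fold, with 524 and 359 CPM and 923 and 669 CPM. Of 18 immediate early genes, 2 were higher in the control members (*Egr1* and *Egr2*, list median 0.38) and 1 in the KO members (*Klf2*, list median 0.49). *Egr1* had 1515 and 742 CPM in the control (log2 ratio 1.03) and 1173 and 836 CPM in KO (0.49), and the difference between the libraries was not tested. Of 15 transcription factors of macrophage identity, 2 were higher and 2 lower in the control members (median 0.00), and none was higher and 3 lower in the KO members (median -0.02). *Maf* had 1225 and 569 CPM in the control and, short of 2-fold, 1524 and 773 CPM in KO. *Nr1h3*, which encodes the sterol receptor LXR alpha, and *Runx3* were lower in both.

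Genes of lipid handling and phagocytosis were lower in members as the rule chose them. Of 18, 7 were lower in the control (median log2 ratio -0.91) and 9 in KO (median -0.95), and none was higher. One of them, *Gpnmb*, was used by the rule. *Spp1*, which encodes osteopontin, had 1375 CPM in members and 6252 in the others in the control, and 984 and 9327 CPM in KO. *Fabp5*, a carrier of fatty acids, had 703 and 3656 CPM, and 808 and 3341 CPM. *Cd9*, a tetraspanin, had 112 and 490 CPM, and 139 and 619 CPM. *Mmp12*, the macrophage elastase, had 10.3 and 132 CPM, and 13.7 and 152 CPM. The coagulation factor genes *F7* (1.78 and 40.0 CPM, and 4.23 and 37.2 CPM) and *F10* (3.21 and 26.5 CPM, and 2.11 and 21.9 CPM) were lower too. The cystine transporter gene *Slc7a11* had 13.2 and 62.0 CPM, and 15.9 and 102 CPM. Of 15 interferon response genes, 8 were lower in the control members (median -1.16) and 5 in the KO members (median -0.94), and of 7 MHC class II genes, 4 and 5. The rule itself limited 3 genes of the first list and 4 of the second, and the lower lists depended on the limits. With no limit but 2 of the 3 genes, no gene of the lipid, interferon or MHC class II lists was lower. The medians were then -0.25 and -0.16 for the lipid genes, 0.53 and 0.73 for the interferon genes and -0.15 and -0.16 for the MHC class II genes, and over all genes 63 were higher in both libraries and 12 lower. *Rsad2*, an interferon-induced gene outside the rule, had 33.9 and 182 CPM in the control and 47.6 and 168 CPM in KO.

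A narrower comparison used the 550 control and 339 KO macrophages that passed every limit but had a UMI in at most 1 of *Ccl8*, *Clec10a* and *C4b*. Of 7695 genes tested in both libraries, 36 were higher in members in both (0.468%) and 93 lower in both (1.21%). The higher genes outside the rule were led by *Cd163* (59.95 against 11.04 CPM in the control, and 83.5 against 9.28 CPM in KO), *Cbr2*, *Ednrb* and *Gas6*. *Gas6*, a ligand of the receptor tyrosine kinases AXL and MERTK, had 493 against 169 CPM and 673 against 186 CPM. *F13a1*, *Ccl24* and *Folr2* were also among the 10 highest. *Ccl2*, *Ccl7*, *Mrc1* and *Igfbp4*, higher in both libraries against all other C1q macrophages, did not pass the rule in both here. The lower genes were led by markers of other cells: the neutrophil genes *S100a9* and *S100a8*, the pericyte gene *Rgs5*, the cytotoxic lymphocyte gene *Gzma* and the endothelial gene *Flt1*. *S100a9* had 12.1 CPM in control members against 350 CPM, and 0 UMIs in KO members against 78.3 CPM. The compared cells were also shallower, with medians of 12623 and 10329 UMIs. The part of these other cells' RNA in the comparison was not tested.

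Cells that missed membership by 1 limit differed among themselves. The 67 KO cells kept out by the *Slc40a1* limit alone had 1074 CPM of *Ccl8*, 224 of *Clec10a* and 116 of *C4b*, against 656, 165 and 51.8 CPM in the KO members. They also had 74.2 CPM of *Cd163* and 1466 CPM of *Mrc1*, against 83.5 and 1418 CPM in the members. The 7 control cells kept out in the same way had 218 CPM of *Cd163*, from 32 UMIs. The 89 control and 45 KO cells kept out by the interferon limit alone had 2605 and 1276 CPM of *Ccl8*, above the members of each library. The 188 control and 42 KO cells kept out by the *Gpnmb* limit alone had 8.2 and 4.3 CPM of *Cd163* and 368 and 284 CPM of *Mrc1*, below the members. The 65 control and 32 KO cells kept out by the MHC class II limit alone had 206 and 215 CPM of *Clec10a*, against 187 and 165 CPM in the members. They had 65.0 and 84.3 CPM of *C4b* and, below the members, 378 and 190 CPM of *Ccl8*. These sets were described by levels only, since limits on the same cells defined them.

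Between the genotypes, the KO members carried more RNA of heme and iron genes than the control members, and the other C1q macrophages of the same libraries showed similar ratios. Of 6923 genes tested between KO and control members at dpi4, 140 were higher in KO (2.02%) and 150 lower (2.17%), with a median log2 ratio of 0.09. The share of higher genes among these fell from 48.3% to 31.6% (93 higher and 201 lower) with TMM factors, which shifted every log2 ratio by -0.10. In the other C1q macrophages, 141 of 12666 genes were higher (1.11%) and 432 lower (3.41%), with a median of 0.00. Of the 290 genes past the rule in the members, 73 (22 higher and 51 lower) also passed it in the others in the same direction, and none in the opposite one. *Bach1* itself (ENSMUSG00000025612; GRCm38, chr16:87698945-87733346, plus strand) had 260 CPM in the control members and 285 CPM in KO (log2 ratio 0.13, interval -0.07 to 0.34). Counts at the 3′ end cannot see the loss of exon 4, so they check nothing. *Lyz2* (ENSMUSG00000069516; chr10:117277331-117282321, minus strand) supplies the promoter of the Cre. It had 15282 CPM (42825 UMIs) in the control members and 25.4 CPM (24 UMIs) in KO, a log2 ratio of -9.23, with -9.56 in the other C1q macrophages.

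Of the 16 heme, iron and redox genes tested in the members, 7 were higher in KO and none lower, with a median log2 ratio of 0.74. In the other C1q macrophages 8 of 17 were higher, with a median of 0.72. *Hmox1* (ENSMUSG00000005413; chr8:75093621-75100589, plus strand), which encodes the heme-degrading heme oxygenase 1, had 376.8 CPM in the control members and 6014 CPM in KO, a log2 ratio of 4.0 (interval 3.90 to 4.09), with 3.94 in the other C1q macrophages and 3.45 in cells past the rule at dpi2. After thinning to 2000 UMIs, 37.5% of control members and 91.7% of KO members had a UMI of *Hmox1*, against 3.51% and 32.3% of T or NK cells. *Spic*, a transcription factor of iron-recycling macrophages, had 8.92 and 160.7 CPM (4.17, interval 3.55 to 4.84). *Slc48a1*, a heme transporter, had 100.3 and 484.3 CPM (2.27). The subunits of glutamate-cysteine ligase, the first enzyme of glutathione synthesis, stood at 38.9 and 187.2 CPM for *Gclm* (2.27) and at 26.0 and 71.9 CPM for *Gclc* (1.46). *Fth1*, the ferritin heavy chain, had 8813 and 20799 CPM (1.24). *Slc40a1* had 37.5 and 132 CPM (1.82), under the limit that the rule set on it, and its ratio in the other C1q macrophages was 3.402. Levels outside the members were as high or higher for several of these genes: *Hmox1* had 470 CPM in the other control cells and 7223 CPM in the other KO cells.

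**Figure D4:**
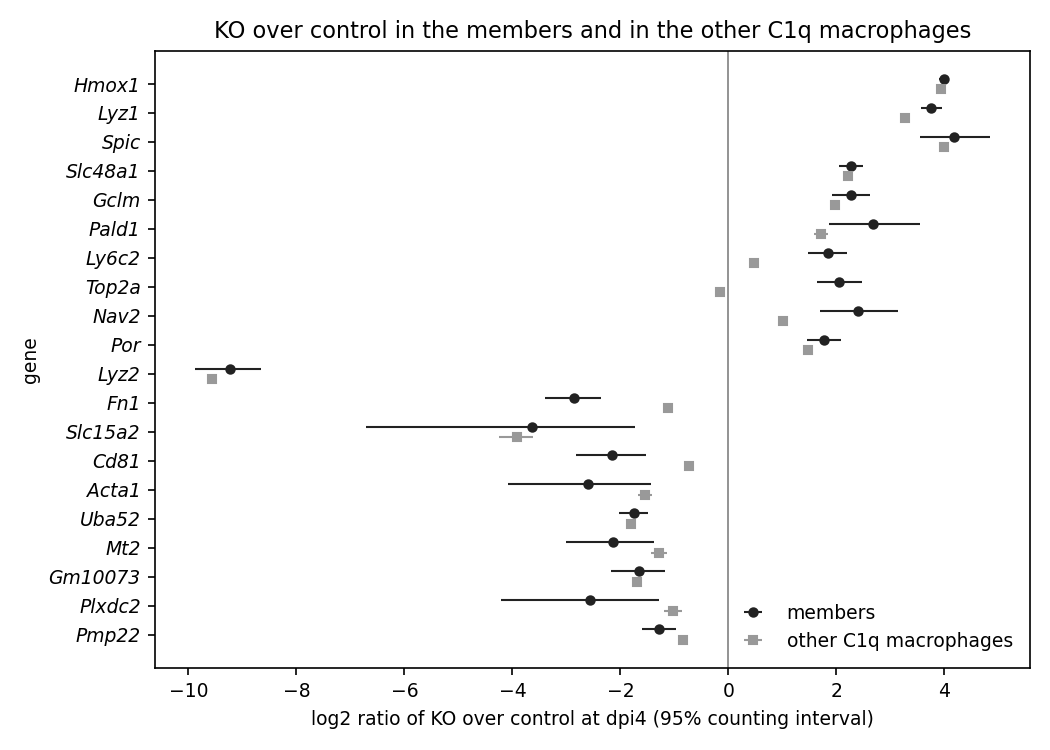
Log2 ratio of KO over control at dpi4 (horizontal axis) in the members (black circles) and in the other C1q macrophages (grey squares), with 95% counting intervals. The genes are the 10 highest and 10 lowest that passed the size rule also without the top cell of each gene and without the 3 cells rich in fibroblast RNA; *Hmox1* stands at 4.0 and 3.94, and *Top2a* at 2.05 and -0.16.

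The promoters of the genes that differed most were searched for the core letters of the Maf recognition element, TGACNNNGC, on both strands (the reverse strand reads GCNNNGTCA). The windows, from RefSeq on GRCm38.p6, run from 250 bases before to 50 after each gene's start. The motif was found in 12.4% of 32851 windows, or for 14.0% of 27025 genes. Of the 10 genes highest in KO members by the naming rule, 6 had a window and 3 of these held the motif (*Gclm*, *Pald1* and *Lyz1*). *Hmox1*, *Slc48a1* and *Ccl5* were among those without a window and were not searched. Of the 10 lowest, 8 had a window and 1 held it (*Lyz2*). These 4 windows are shown because they hold the motif, which is in capitals. They lie at chr3:122245307-122245606 (*Gclm*, plus strand), chr10:61383290-61383589 (*Pald1*, minus strand), chr10:117292819-117293118 (*Lyz1*, minus strand) and chr10:117282223-117282522 (*Lyz2*, minus strand).
Gclm: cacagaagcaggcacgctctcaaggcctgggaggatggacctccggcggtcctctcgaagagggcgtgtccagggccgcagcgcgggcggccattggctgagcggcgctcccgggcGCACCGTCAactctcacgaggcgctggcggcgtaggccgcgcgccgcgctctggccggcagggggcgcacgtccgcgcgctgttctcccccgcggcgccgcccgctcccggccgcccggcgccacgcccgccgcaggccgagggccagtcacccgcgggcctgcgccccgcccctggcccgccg
Pald1: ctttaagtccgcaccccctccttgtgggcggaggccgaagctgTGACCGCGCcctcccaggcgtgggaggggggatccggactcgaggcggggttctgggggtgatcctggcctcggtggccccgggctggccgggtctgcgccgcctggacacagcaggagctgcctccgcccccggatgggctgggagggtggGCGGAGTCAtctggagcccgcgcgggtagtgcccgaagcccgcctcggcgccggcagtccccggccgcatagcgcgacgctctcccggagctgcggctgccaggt
Lyz1: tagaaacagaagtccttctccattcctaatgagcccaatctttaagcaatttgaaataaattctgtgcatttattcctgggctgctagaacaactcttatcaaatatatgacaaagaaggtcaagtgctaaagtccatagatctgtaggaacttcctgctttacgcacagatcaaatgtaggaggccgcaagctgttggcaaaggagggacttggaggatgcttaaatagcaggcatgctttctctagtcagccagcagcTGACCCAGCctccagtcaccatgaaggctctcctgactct
Lyz2: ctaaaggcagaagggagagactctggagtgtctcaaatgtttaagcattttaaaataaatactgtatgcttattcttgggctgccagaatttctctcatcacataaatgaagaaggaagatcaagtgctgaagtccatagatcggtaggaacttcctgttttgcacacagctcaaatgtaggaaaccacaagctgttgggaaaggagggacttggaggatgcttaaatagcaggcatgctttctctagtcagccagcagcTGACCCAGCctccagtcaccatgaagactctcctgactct

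In *Gclm* the motif GCACCGTCA began at position -134 from the start, and in *Pald1*, TGACCGCGC at -207 and GCGGAGTCA at -55. *Lyz1* and *Lyz2* held the same letters, TGACCCAGC, at the same position, 10. The motif was found in *Lyz2*, far lower in KO, and in its neighbour *Lyz1*, which was higher. *Lyz2* also supplies the promoter of the Cre, and the part of the Cre allele in its ratio was not tested. *Lyz1* had 95.6 CPM in the control members and 1289 CPM in KO (log2 ratio 3.75), but it is a near-identical paralog of *Lyz2*, so reads may be split uncertainly between them. *Pald1*, a phosphatase-like gene, had 6.78 and 43.4 CPM (2.68), and 1.71 in the other C1q macrophages. A match of these letters is a description and no measure of binding.

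Several of the largest ratios came from 1 cell. Of the 94 *Ccl5* UMIs in the KO members, 86 (91.5%) were in 1 cell, and the level was 7.14 CPM in the control and 99.4 CPM in KO. The same held for *Ctsk*, the gene of a collagen-degrading protease, with 80 of 85 UMIs in 1 cell (94.1%). *Ctsk* had 12.5 and 89.9 CPM (log2 ratio 2.85) with all cells and a log2 ratio of -0.75 without the top cell of each library. Among the genes lower in KO, *Retnla* had 690 UMIs in the control members, of which 678 were in 1 cell, and 3 UMIs in KO. The matrix genes *Eln* (299 and 0 UMIs, where 3 counts would be 3.17 CPM), *Col3a1* (660 and 11 UMIs), *Col1a2* (1097 and 19 UMIs), *Col5a2*, *Ogn* and *Serpinh1*, with *Itm2a* and *Mest*, made up the rest of the 10 lowest below *Lyz2*. Without the 3 control cells rich in fibroblast markers, the counts were 129 genes higher and 88 lower, and the log2 ratio of *Col1a2* was 0.23. Without the top cell of each gene in each library, 74 of the 140 higher and 110 of the 150 lower genes still passed the rule. Without the top cells and, separately, without the 3 cells, 70 higher and 73 lower genes passed throughout.

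**Figure D5:**
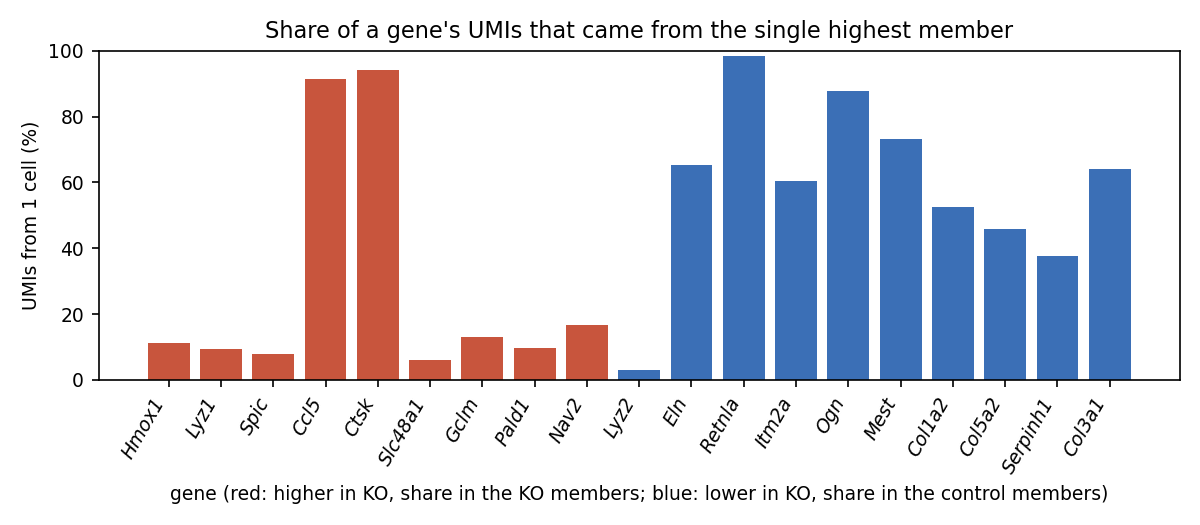
Percentage of a gene's UMIs that came from the single highest member (vertical axis), for the genes reported here among the 10 highest in KO (red, share in the KO members) and the 10 lowest (blue, share in the control members) by the naming rule. The shares run from 3.12% for *Lyz2* to 98.3% for *Retnla*.

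The genes that passed throughout were ranked in the same way, a list made after the values were seen. Outside the rule's own and mitochondrial genes, they were 69 higher and 72 lower genes. Without the *Slc40a1* limit 45 and 30 of these still passed. In the macrophages past every limit with at most 1 of the 3 genes, 18 and 17 passed. None passed the opposite way in either set. *Por*, the reductase that supplies electrons to heme oxygenase and cytochromes P450, had 57.8 CPM in the control members and 196.7 CPM in KO (log2 ratio 1.77, and 1.47 in the other C1q macrophages). *Nav2* had 9.63 and 50.8 CPM (2.40, and 1.0). *Ly6c2*, a surface marker of inflammatory monocytes, had 41.8 and 149.1 CPM (1.84, interval 1.47 to 2.20, and 0.47 in the others), with UMIs in 14 control and 16 KO members. The ratio was not particular to the members, since the macrophages past every limit with at most 1 of the 3 genes had 33.7 and 123 CPM (1.87). Without the *Slc40a1* limit it was 0.97 and did not pass the rule. The cells with a UMI were 7.91% and 21.6% of members, against 15.1% and 17.6% of the other C1q macrophages. In T or NK cells the shares were 33.3% and 28.6%. *Ly6c1*, a close paralog with which reads may be split uncertainly, had 18 UMIs in the control members and 1 in KO. *Ly6a*, which encodes Sca-1, had 53.9 and 198.8 CPM (1.88, and 0.45 in the others), with 1.78 in the macrophages with at most 1 of the 3 genes. *Axl* had 72.4 and 166 CPM (1.20, and 0.45 in the others), with 0.92 in the macrophages with at most 1 of the 3 genes. The KO members also carried more monocyte and T or NK cell marker RNA than the control members, as given above, and its part in these ratios was not tested. In cells past the rule at dpi2, *Ly6c2* (-1.55) and *Ly6a* (-2.48) were lower in KO.

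Among the lower genes that passed throughout, *Fn1*, the gene of the matrix protein fibronectin, had 252 CPM in the control members and 34.9 CPM in KO (log2 ratio -2.85, and -1.12 in the other C1q macrophages). *Cd81*, a tetraspanin, had 107.8 and 24.3 CPM (-2.15, and -0.73). The metallothioneins, which bind zinc and copper, were lower in KO, with 69.9 and 15.9 CPM for *Mt2* (-2.14, and -1.29 in the others) and 782 and 390 CPM for *Mt1* (-1.0, and -0.69), which did not reach 2-fold without the *Slc40a1* limit (-0.999). *Slc15a2*, a peptide transporter, had 26.4 and 2.11 CPM (-3.64, and -3.92), but it stood at 3.03 in cells past the rule at dpi2. *Pmp22* had 259 and 107 CPM (-1.28, and -0.83), and -0.93 without the *Slc40a1* limit, short of the rule. *Acta1*, the actin of skeletal muscle fibres, had 38.5 and 6.34 CPM (-2.60, and -1.55), beside muscle markers that summed to 98.5 CPM in the control members and 29.6 CPM in KO. The part of muscle RNA in these ratios was not tested.

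The ratios of the marker genes between the genotypes depended on the *Slc40a1* limit, which kept out KO cells with more of the rule's own genes, as given above. *C4b* had 106 CPM in the control and 51.8 CPM in KO (log2 ratio -1.04, interval -1.50 to -0.60) and *Ccl8* 1235 and 656 CPM (-0.91, -1.04 to -0.79), with 0.43 and -0.07 in the other C1q macrophages. Without the *Slc40a1* limit the log2 ratios were -0.33 for *C4b*, which no longer passed the rule, and -0.52 for *Ccl8*, and with the mitochondrial limit at 5% that of *C4b* was 0.09. *Clec10a* had 187 and 165 CPM (-0.18, -0.45 to 0.08), and 0.09 without the *Slc40a1* limit. *Igfbp4*, outside the rule, had 330 and 367 CPM (0.15, -0.03 to 0.33). *Egr1* had 1515 and 1173 CPM (-0.37, -0.47 to -0.27), but its log2 ratio turned to 0.17 without the *Slc40a1* limit, the value it also had in the other C1q macrophages. In the macrophages past every limit with at most 1 of the 3 genes it was -0.21.

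For most gene groups few or no genes passed the rule between the genotypes, beside the background of 2.02% higher and 2.17% lower. None of the 5 chemokines that attract monocytes and eosinophils passed (median log2 ratio 0.34, and -0.26 without the *Slc40a1* limit), none of 15 lectins and scavenger receptors (0.11), none of 18 immediate early genes (-0.21), none of 6 MHC class II genes (-0.84), none of 13 interferon response genes (0.30), none of 11 inflammatory genes (0.07) and none of 11 growth factors (0.17). Of the MHC class II genes, *Cd74* had 996 and 541 CPM (-0.88), and -0.76 in the other C1q macrophages. Of 10 other chemokines, *Ccl5* and *Pf4* were higher (list median -0.18), and *Pf4*, platelet factor 4, had 1187 and 2405 CPM (1.02, and 0.71 in the others). *Pf4* was also the 1 higher gene among 12 tissue-resident genes (0.15). Of 12 complement genes, *C4b*, used by the rule, was lower (-0.05), and without the *Slc40a1* limit none of 13 was. Of 18 lipid and phagocytosis genes, *Axl* and *Fabp4* were higher (0.08), but 50.6% of the *Fabp4* UMIs in KO came from 1 cell. Of 13 transcription factors, *Pparg* was lower, with 20.7 and 9.52 CPM (-1.12), and the list median was -0.16. Without the *Slc40a1* limit none of 14 was lower, 1 was higher and the median was 0.08. *Igf1* had 524 and 923 CPM (0.82), and 0.90 in the other C1q macrophages.

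Cell cycle genes were higher in the KO members by their sums, while the share of cells that carried them did not differ beyond counting error. Of 8 genes, 5 were higher (median log2 ratio 1.41), against none of 8 in the other C1q macrophages (median -0.16). Without the top cell of each gene 2 were higher (median 0.96), and with the mitochondrial limit at 5% none was, with a median of -2.36. Without the *Slc40a1* limit 2 were higher (median 0.78). *Top2a*, the topoisomerase of dividing cells, had 30.7 and 126.9 CPM (2.05), with UMIs in 18 of 177 control and 7 of 74 KO members. *Birc5* was found in 18 and 10 members and *Ccnb2* in 17 and 10. Of the 580 cell cycle UMIs of the KO members, 244 were in 1 cell. At least 3 cell cycle UMIs were found in 46 of 177 control members (26.0%, interval 19.7 to 33.1) and 15 of 74 KO members (20.3%, 11.8 to 31.2), a difference of -5.72 percentage points (-16.8 to 6.91). In the other C1q macrophages these shares were 23.3% and 18.7%. *Mki67* was found in 20.9% and 25.7% of members, against 16.7% and 14.3% of T or NK cells, which were shallower. With each cell thinned to 2000 UMIs the order turned. The shares were then 3.41% and 6.94% of members against 12.3% and 10.4% of T or NK cells, with overlapping intervals. The shares of *Mki67* therefore do not place the members above T or NK cells.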

How the data were processed

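The files hold raw UMI counts per gene (27998 genes) and cell barcode for 4 libraries, which the authors made with Cell Ranger 6.1.2 and the mm10 genome, per the submitters' processing notes, and deposited without normalization. The labels name the 3′ v2 kit and the study's methods v3.1, and this was not settled. Groups came from the sample titles. No per-sample column was left without a sample.

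The members and the 14 gene lists were chosen with earlier results of these data known, so they are no independent support. In each library the UMIs of a set's cells were added up and given as CPM, with exact Poisson intervals. Ratios have exact conditional binomial intervals, shares Clopper-Pearson intervals and differences of shares Newcombe's intervals from exact limits, all at 95%. They cover counting error only, and 3 counts were taken as the floor under a UMI count of 0. The size rule was at least 2-fold, an interval without 1, and 50 or more UMIs in the pair. Of 193 list genes 192 were matched. Genes were named by the 10 highest and 10 lowest past the rule, ranked by the interval bound nearest to 1, without the genes of the rule and mitochondrial genes, and from the lists and markers. The others named were chosen after their values were seen. Values of some genes that the naming covers are not reported here. T or NK cells were cells under the C1q limit with UMIs in at least 2 of the T or NK markers. Scrublet (scanpy 1.11.5) called doublets at 0.8% per 1000 cells, and they were kept. It called 2 control and 1 KO members. The study used miQC and scDblFinder, which were not used here. For thinned shares each cell was thinned to 2000 UMIs, which left out 1 control and 2 KO members. Tools were Python 3.11.15, numpy 2.4.6, scipy 1.17.1, pandas 2.3.3, matplotlib 3.10.9 and, for TMM factors, edgeR 4.0.16 in R 4.3.3. Alternatives changed 1 limit, filter or scaling at a time, apart from 1 that dropped the 4 limits on other genes together. Gene positions are those of GENCODE on GRCm38.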

Additional observations from a re-analysis of the deposited data

Results flagged for a closer look

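The share of cells past the rule among C1q macrophages, KO minus control, was -2.24 percentage points at dpi4 and 4.71 points at dpi2, opposite directions at the 2 time points. Without the *Slc40a1* limit the difference at dpi4 was -0.076 points (-1.16 to 1.03). *Ctsk* had a log2 ratio of KO over control of 2.85 in the members and -0.17 in the other C1q macrophages, and 94.1% of its UMIs in the KO members were in 1 cell. *Egr1* had a log2 ratio of -0.37 in the members and 0.17 in the other C1q macrophages, but without the *Slc40a1* limit the ratio in the members was also 0.17, and in the macrophages past every limit with at most 1 of the 3 genes it was -0.21. Each pair stands out because the 2 values have opposite signs, and with 1 library per group the differences were not tested.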

How the results depend on the processing

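No paired analysis was possible because each group was 1 library. For the same reason no library could be left out. The difference in share at dpi4 was negative under all 11 alternatives. It moved to -0.93 points with a mitochondrial limit of 5%, to -0.926 with all 3 genes required and to -0.076 without the *Slc40a1* limit. At dpi2 it moved to 1.65 points with the gate at 5000 UMIs and to 1.07 with all 3 genes. The genes past the size rule between the genotypes numbered 290, and 185 with the mitochondrial limit of 5%, 449 with 2 of 3 genes and no other limit, 57 from 200 UMIs, 704 from 1 UMI and 784 from 1.5-fold. The genes past it between the members and the others numbered 207, and 128, 75 and 495 with the mitochondrial limit, with no other limit and from 1.5-fold. The split of 98 higher and 109 lower became 63 and 12 with no other limit. Between the members and the others the split was 70 higher and 158 lower with TMM factors (shifts of -0.14 and -0.19) and 69 and 196 without the top cell of each gene. Between the genotypes the top cells left 75 higher and 169 lower.

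Among single genes the log2 ratio of KO over control turned for *Ctsk* (-0.60 with the gate at 5000 UMIs, -1.62 with the mitochondrial limit, -1.16 with a C1q limit of 10, -0.96 with no other limit, -0.75 without top cells), *Retnla* (0.34 with the gate at 5000 UMIs), *C4b* (0.088 with the mitochondrial limit, 0.083 with no other limit), *Ccl5* (-1.03 with all 3 genes, -0.67 with no other limit), *Ogn* (1.19 without cells with 3 fibroblast or muscle UMIs) and *Col1a2* (0.23 without cells with 100 fibroblast UMIs). The ratio of *Mfge8* in members over others in KO turned to 0.15 with no other limit. The cause was not tested. Of the other values, 807 for single genes and 459 for list medians stayed within their counting intervals, and 365 and 128 moved. The sign of 17 and 29 of those that moved changed, none of the 17 in a ratio past the rule, as did the sign of 5 and 40 of those that stayed. The list medians that turned between the genotypes included cell cycle genes (-2.36 with the mitochondrial limit, -0.42 with all 3 genes) and chemokines that attract monocytes and eosinophils (-0.26 without the *Slc40a1* limit). Dropping the *Slc40a1* limit or all limits and leaving out top cells or fibroblast-rich cells were chosen after seeing the data. Depth limits genes under 50 UMIs, and the 74 KO members limit every ratio between the genotypes.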
